A study of Mus musculus with 8 samples.

Results

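Trem2-Tyrobp-Syk signalling was followed through 8 genes of microglial RNA: the receptor Trem2, its signalling chain Tyrobp, the kinase Syk, the lipase Plcg2, the inhibitory enzymes Inpp5d and Ptpn6, and the inhibitory receptors Cd33 and Sirpa. These 8 were taken by gene name from the 37447 genes of the deposited expression table, and each name matched 1 row. The match used no values, but the 8 were chosen with earlier results of these data known.

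Trem2 is a surface receptor of microglia and other myeloid cells that binds lipids, lipoproteins and cell debris. It has no signalling domain of its own and pairs in the membrane with Tyrobp, also called DAP12, whose cytoplasmic tail carries an activation motif that Src family kinases phosphorylate. The phosphorylated motif recruits Syk, which acts on Plcg2 and on phosphoinositide kinases, while Siglec and SIRP receptors, Ptpn6 and Inpp5d restrain the same steps. In microglia the pathway is known for its part in phagocytosis, survival and the response to damaged tissue.

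The RNA came from microglia that were sorted by flow cytometry, after enrichment on Percoll, from optic nerves of C57BL/6 mice aged 3 months. The control mice, called FF, were Nf1 flox/flox. The FFC mice were Nf1 flox/flox; GFAP-Cre, so that Cre was driven by the GFAP promoter, which is active in astrocytes and not in the sorted cell type, and every mouse carried the floxed Nf1 alleles. Each genotype had 4 libraries, 2 from females (replicates 1 and 4) and 2 from males (replicates 2 and 3). The labels call them biological replicates, but the sources used here do not give whether a library held 1 animal or a pool. The comparison asks which microglial transcripts differ when Nf1 is deleted in astrocytes, the setting of the low-grade glioma model named in the series title.

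Levels are FPKM, that is fragments counted per kilobase of transcript and relative to library depth, and differences are FFC minus FF on log2(FPKM + 1), a scale that understates the change of low genes. Read counts were not used here, but low FPKM values of 720 olfactory receptor gene models of 900 to 1000 bases fell on regular steps. Between 96.8% and 100% of the low values of a library lay within 0.2 of a whole step. A step, which is what 1 fragment on such a gene is worth, ran from 0.0184 FPKM in FF 1 to 0.0866 FPKM in FF 2, so FF 1 was 4.72 times as deep as FF 2. On that scale the thinnest value of the 8 genes per kilobase was Syk in FF 2, with about 94.5 fragments per kilobase. Its counting error over 1 kilobase was 10.3%. The deepest was Tyrobp in FF 1, with about 158316 fragments per kilobase. Fragments over a whole transcript were not derived. The cDNA was amplified before sequencing, so these figures cover counting error only.

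FF 2 and FF 4 had the lowest correlations with the other libraries and the highest shares of olfactory and vomeronasal receptor genes. Their median Spearman correlation with the rest was 0.40 and 0.46, against 0.51 to 0.60 for the other 6. Olfactory and vomeronasal receptor genes took 4.55% and 3.59% of the summed FPKM of FF 2 and FF 4, against 0.734% to 1.86% elsewhere. That share was also higher in every FF library (1.70% to 4.55%) than in any FFC library (0.734% to 1.65%). By other measures FFC 4 was the extreme library, with the most genes at 0 (18383) and the fewest above 1 FPKM (11964). Nf1 had 44.7 ± 21.2 FPKM across FF and 62.5 ± 24.2 FPKM in FFC (SD, n = 4 each), and since the sorted cells are not those in which Cre acts, its level does not check the labels. All 12 microglia markers, including Csf1r, P2ry12 and Tmem119, were present in every library, with a summed level of 1668 to 4829 FPKM across FF and 3139 to 5455 FPKM in FFC. Neutrophil markers summed to 2812 FPKM in FF 1, 242, 391 and 193 FPKM across FF 2 to FF 4, and 7.60, 566, 957 and 66.2 FPKM in FFC 1 to FFC 4, so the FF libraries other than FF 1 lay within the FFC range. Of those 8 markers 6 had the lower mean in FFC, Ly6g was at 0 in all FF libraries and in FFC 1, and S100a8 was at 0 in FFC 4. Markers of border-associated macrophages summed to 914, 234, 427 and 344 FPKM across FF 1 to FF 4 and 242, 249, 90.2 and 645 FPKM in FFC 1 to FFC 4, with FF 1 and FFC 4 the highest, 4 of 5 lower on average in FFC and none at 0. Other myeloid cells also express Tyrobp, Syk, Ptpn6 and the rest, and the part of those cells in the values was not tested. The astrocyte marker Gfap did not exceed 1.03 FPKM in any library. In bulk RNA, fewer cells of a type and less RNA per cell cannot be told apart.

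The levels of Trem2, Syk and Inpp5d took different patterns across the libraries. Upstream sequence is shown for these genes, which are the receptor, its kinase and an inhibitory enzyme. It is the RefSeq sequence of the 100 bases before the annotated start, plus strand, build GRCm38.p6, and capitals mark the letters GAGGAA or their reverse complement TTCCTC, the core of the purine-rich box known for the myeloid factor PU.1 and other ETS factors.
Trem2, chr17:48346301-48346400: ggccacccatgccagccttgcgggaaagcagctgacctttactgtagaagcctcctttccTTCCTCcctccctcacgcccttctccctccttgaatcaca
Inpp5d, chr1:87620212-87620311: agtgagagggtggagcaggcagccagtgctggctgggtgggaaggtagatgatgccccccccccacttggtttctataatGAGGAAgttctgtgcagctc
Syk, second annotated start, chr13:52596782-52596881: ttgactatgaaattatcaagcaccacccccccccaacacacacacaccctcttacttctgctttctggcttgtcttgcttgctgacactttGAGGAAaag
The letters begin 40 bases before the start in Trem2, on the opposite strand, 20 before it in Inpp5d, which holds them again just after the start on the opposite strand, and 9 before the second start of Syk. The other annotated Syk start, chr13:52583337-52583436, has a stretch of other composition in which the letters are absent.
Syk, first annotated start: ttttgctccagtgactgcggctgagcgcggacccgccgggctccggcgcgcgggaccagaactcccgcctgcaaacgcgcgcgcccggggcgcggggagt
In windows of 300 bases, 250 before and 50 after the start, and on both strands, GAGGAA was found in 4 of the 7 promoters of the 6 genes matched by symbol (Trem2, Syk at its second start, Inpp5d and Cd33), and in 28.3% of the 32851 promoters in the table. The longer GAGGAAGT, which contains it, was found in Inpp5d and in 3.20% of all promoters, and AGAGGAAG, which overlaps it, in none of the 7 and in 4.55% of all. These are matches of letters and not measured binding sites. The genes without a match were Plcg2 and Ptpn6, and Tyrobp and Sirpa were not matched to a promoter.

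Trem2 and its chain were among the most abundant transcripts of these cells. Trem2 (ENSMUSG00000023992, chromosome 17, 48485726 to 48493472 in mm9) measured 501, 168, 458 and 127 FPKM across FF 1 to FF 4 and 420, 299, 356 and 856 FPKM across FFC 1 to FFC 4. FF 2 and FF 4 were the lowest and FFC 4 the highest, and FF 1 and FF 3 lay above 3 of the 4 FFC libraries, so the genotypes overlapped. The means were 314 ± 193 FPKM across FF and 483 ± 254 FPKM in FFC (SD, n = 4 each), a difference of 0.74 ± 0.58 on the log2 scale (SE). That difference was not larger than the spread between libraries by limma (Benjamini-Hochberg adjusted p = 0.759) or by an exact two-sided permutation test over the 70 arrangements of the libraries (p = 0.286, where the smallest possible is 0.0286).

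Tyrobp (ENSMUSG00000030579, chromosome 7, 31198807 to 31202596) is the transmembrane chain that Trem2 and several other receptors share. It measured 2906, 367, 2544 and 1110 FPKM across FF and 2113, 1903, 1411 and 4552 FPKM in FFC, in the order of the replicates. FF 2 stood far below the other 7 libraries and FFC 4 far above them, and the FFC values lay within or above the FF range. The means were 1732 ± 1196 and 2495 ± 1403 FPKM (SD, n = 4 each), and the difference was 0.77 ± 0.62 (adjusted p = 0.759, exact permutation p = 0.429). Over all 8 libraries Tyrobp lay at the 99.9th percentile of the genes tested and Trem2 at the 99.0th. Per length, Tyrobp was above Trem2 in all 8 libraries, by 2.19 to 8.73 times in FF and 3.96 to 6.36 times in FFC. The lowest and the highest of those ratios were in FF 2 and FF 4.

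Syk (ENSMUSG00000021457, chromosome 13, 52678542 to 52744161), the cytoplasmic tyrosine kinase that docks on phosphorylated Tyrobp, was the least abundant of the 8. It measured 12.96, 8.18, 5.70 and 31.5 FPKM across FF and 23.4, 20.3, 9.81 and 21.9 FPKM in FFC. The FF 4 library, at or near the bottom for 6 of the other genes, was the highest of all for Syk, and FF 3, high for Trem2 and Tyrobp, was the lowest. The means were 14.6 ± 11.7 and 18.8 ± 6.14 FPKM (SD, n = 4 each), a difference of 0.55 ± 0.73 (adjusted p = 0.834, exact permutation p = 0.343).

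Plcg2 (ENSMUSG00000034330, chromosome 8, 120022191 to 120159040) is the phospholipase activated downstream of Syk that releases diacylglycerol and inositol trisphosphate. It measured 82.7, 12.7, 52.4 and 6.88 FPKM across FF and 26.0, 35.0, 51.1 and 60.7 FPKM in FFC. FFC 1, FFC 2 and FFC 3 fell between the low FF values (FF 2 and FF 4) and the high ones (FF 1 and FF 3), and FFC 4 lay between FF 3 and FF 1. The means were 38.7 ± 35.7 and 43.2 ± 15.6 FPKM (SD, n = 4 each), and the difference was 0.68 ± 0.80 (adjusted p = 0.811, exact permutation p = 0.486).

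Inpp5d and Ptpn6 are the enzymes that oppose these steps. Inpp5d (ENSMUSG00000026288, chromosome 1, 89516887 to 89617082), the lipid phosphatase also known as SHIP1, measured 129, 53.2, 180 and 102 FPKM across FF and 60.5, 151, 120 and 241 FPKM in FFC. FF 2 and FFC 1 were the low libraries and FFC 4 the high one, so a low and a high value occurred within FFC itself. The means were 116 ± 53.1 and 143 ± 75.2 FPKM (SD, n = 4 each), a difference of 0.26 ± 0.60 (adjusted p = 0.911, exact permutation p = 0.657).

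Ptpn6 (ENSMUSG00000004266, chromosome 6, 124670725 to 124688732), the tyrosine phosphatase that binds inhibitory receptor tails, measured 541, 87.8, 270 and 183 FPKM across FF and 298, 255, 403 and 673 FPKM in FFC. FF 2 was the lowest and FFC 4 the highest, as for Tyrobp, and FF 1 lay above 3 FFC libraries. The means were 270 ± 195 and 407 ± 188 FPKM (SD, n = 4 each), and the difference was 0.78 ± 0.59 (adjusted p = 0.759, exact permutation p = 0.257). Its row overlaps that of the predicted gene Gm20531, which did not exceed 2.18 FPKM.

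The inhibitory receptors varied least across the libraries. Cd33 (ENSMUSG00000004609, chromosome 7, 50782826 to 50788541), a sialic acid-binding receptor of myeloid cells, measured 144, 57.5, 79.9 and 47.6 FPKM across FF and 56.1, 88.1, 92.0 and 120 FPKM in FFC. Its highest value was in FF 1 and its lowest in FF 4, with all FFC values between them. The means were 82.3 ± 43.5 and 89.0 ± 26.1 FPKM (SD, n = 4 each), a difference of 0.19 ± 0.57 (adjusted p = 0.936, exact permutation p = 0.686), close to the median of all genes tested (0.19).

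Sirpa (ENSMUSG00000037902, chromosome 2, 129418571 to 129457964), the receptor for Cd47 that restrains phagocytosis, came closest to separating the genotypes. It measured 90.9, 79.1, 150 and 72.5 FPKM across FF and 117, 203, 172 and 177 FPKM in FFC. FFC lay above FF in 15 of the 16 pairs of libraries, and the overlap was FF 3 above FFC 1. The means were 98.1 ± 35.3 and 167 ± 36.1 FPKM (SD, n = 4 each), and the difference was 0.80 ± 0.51 (adjusted p = 0.759, exact permutation p = 0.0571).

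**Figure D1:**
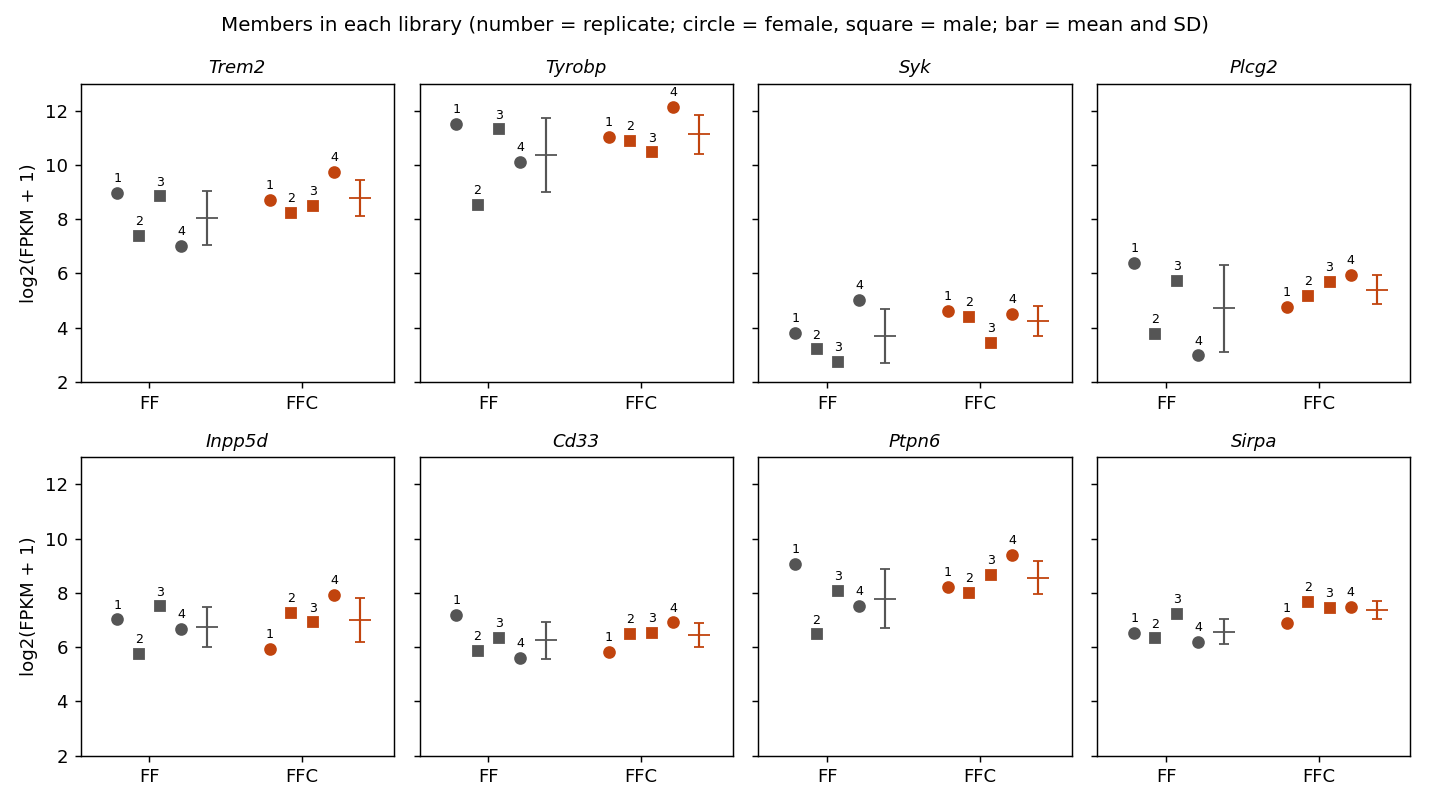
Level of each of the 8 genes, as log2(FPKM + 1), in the 4 FF (grey) and 4 FFC (orange) libraries; numbers are replicates, circles females, squares males, and bars mean and SD. The genotypes overlap in all 8 panels, and in Sirpa through FF 3 above FFC 1 alone.

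By limma 0 of the 8 genes passed an adjusted p of 0.05, and 0 had an unadjusted p under 0.05, beside 0.0% of the 17753 genes tested that passed after adjustment and 6.46% (1146 genes, 802 of them higher in FFC) that had an unadjusted p under 0.05. All 8 had a mean of at least 1 FPKM and were tested. In 0 of the 8 did the 4 FFC libraries all lie above the 4 FF libraries, which held for 3.05% of all genes tested. The mean was higher in FFC for 8 of 8 genes on the deposited scale, as for 56.7% of all genes tested, with a median difference of 0.71 against 0.19. With upper-quartile scaling and with an equal sum of FPKM it was higher for 7 of 8, the exception being Cd33 at -0.035 and -0.0095, and those scalings and quantile normalization moved the median of all genes to between 0.03 and 0.04. Relative to that median, Trem2, Tyrobp, Plcg2, Ptpn6 and Sirpa lay 0.43 to 0.65 above it under the deposited and the 3 other scalings, Syk 0.28 to 0.36, and Inpp5d and Cd33 between -0.06 and 0.11.

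Most of the 8 genes were low and high in the same libraries. FF 2 was among the 2 lowest libraries for 7 of the 8 and FF 4 for 6 of the 8, while FFC 4 was the highest for 4 and never below the third place. From the highest to the lowest library the level differed 12.4-fold for Tyrobp, 12.01-fold for Plcg2, 7.67-fold for Ptpn6, 6.73-fold for Trem2, 5.52-fold for Syk and 4.53-fold for Inpp5d. For Cd33 and Sirpa it was 3.03-fold and 2.80-fold. Syk differed from this pattern, since it was highest in FF 4, where Plcg2, Trem2, Cd33 and Sirpa were lowest.

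**Figure D2:**
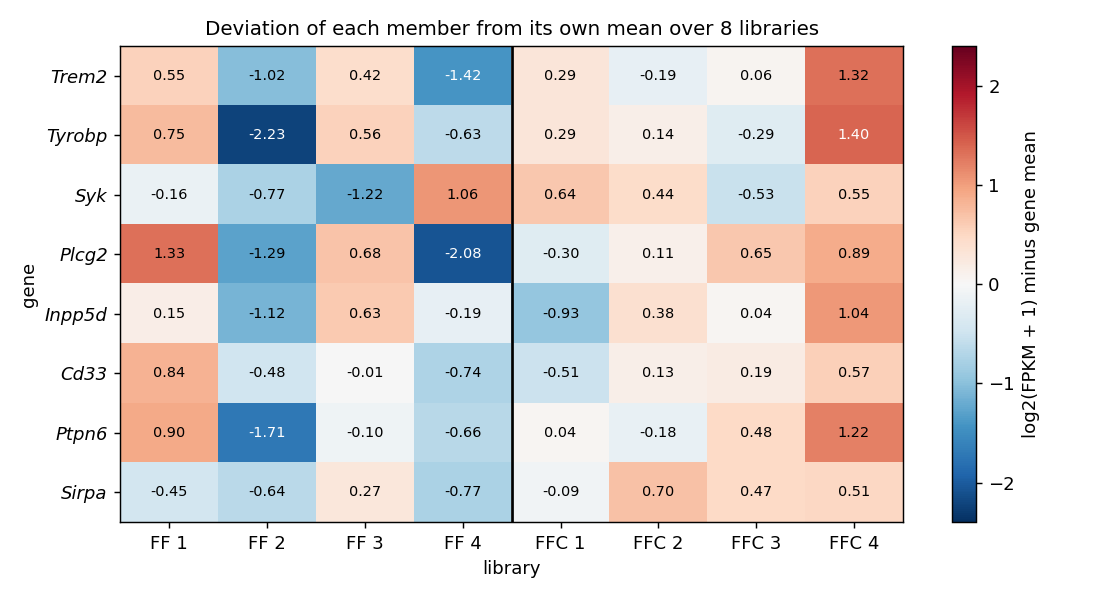
Each gene's log2(FPKM + 1) in each library minus its own mean over the 8 libraries (red above, blue below; the black line parts FF from FFC). The FF 2 and FF 4 columns are mostly blue and FFC 4 is red throughout, while Syk is red in FF 4.

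The likeness of these patterns was measured as the root mean square difference between genes after each was centred on its mean, over the 8 libraries. The closest pair was Tyrobp and Ptpn6 (0.44), followed by Trem2 and Ptpn6 (0.46), and Trem2 and Tyrobp differed by 0.54. Syk was 0.95 from its nearest member, Sirpa, and 1.52 from Plcg2, the largest distance of the 28 pairs and larger than the spread of either gene over the libraries (0.74 and 1.09). Plcg2 over Syk was 6.38, 1.55, 9.19 and 0.22 in FF and 1.11, 1.73, 5.21 and 2.78 in FFC, a 42.1-fold range across libraries. Only in FF 4 was Syk the more abundant of those genes per length.

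Among 8169 other genes averaging 5 FPKM or more, the patterns nearest to Tyrobp were those of Rps24 (0.10), Rpl11 (0.23) and Arf6 (0.27). Rps24 and Rpl11 encode ribosomal proteins and Arf6 a small GTPase of membrane traffic. Rps24 measured 3907, 544, 3069 and 1290 FPKM across FF and 2620, 2453, 1758 and 5620 FPKM in FFC, thus low in FF 2 and high in FFC 4 as Tyrobp was. Nearest to Trem2 were the ribosomal protein gene Rps9 (0.15), Bin1 (0.20), which encodes a membrane-bending protein, and D18Ertd653e (0.21). Nearest to Syk were Rab14 (0.34), a GTPase of endosomes, Zfp672 (0.38) and Kri1 (0.39). Rab14 measured 156, 120, 73.4 and 337 FPKM across FF and 189, 216, 197 and 321 FPKM in FFC, with FF 4 highest as for Syk. These distances rest on the same 8 libraries, and the part of depth in them was not tested.

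In mean level over the 8 libraries the order was Tyrobp (2113 FPKM), Trem2 (398), Ptpn6 (339), Sirpa (133), Inpp5d (130), Cd33 (85.7), Plcg2 (40.9) and Syk (16.7). Tyrobp was above Trem2, Ptpn6 above Sirpa and Cd33 above Plcg2 in 8 of 8 libraries, and Plcg2 was above Syk in 7. Trem2 and Ptpn6 were ordered that way in 5 of 8, Sirpa and Inpp5d in 4, and Inpp5d and Cd33 in 6, so those neighbours did not keep 1 order across libraries. The kinase and the lipase were the rare components: Syk lay at the 72.2nd percentile and Plcg2 at the 88.0th of the genes tested, against the 94.6th or higher for the other 6. The inhibitory receptors were below Trem2 in every library, with Cd33 at 0.13 to 0.37 of the Trem2 level and Sirpa at 0.18 to 0.68.

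The higher FFC means of most of the genes moved with FF 2 and FF 4. FF 2 was among the 2 lowest libraries for 7 of the 8 genes and FF 4 for 6. Leaving out low FF libraries lowers the difference by construction, so the lower values below are no separate evidence about genotype. With those libraries left out, the difference was -0.11 for Trem2, -0.27 for Tyrobp, -0.67 for Plcg2, -0.26 for Inpp5d, -0.32 for Cd33 and -0.013 for Ptpn6, and it stayed positive for Syk (0.97) and Sirpa (0.49). With the share of olfactory and vomeronasal receptor genes as a covariate, the sign was again positive for Syk (0.83) and Sirpa (0.35) alone. Since that share was higher in every FF library than in any FFC library, this fit cannot separate it from genotype. Without FF 2 the difference of Tyrobp was 0.16 and that of Inpp5d -0.063. Without FF 4 that of Plcg2 was 0.10 and that of Cd33 -0.021, and without FFC 4 that of Inpp5d was -0.039. Sirpa stayed between 0.67 and 1.02 when any 1 library was left out. The part of depth and of the receptor gene share in these differences was not tested.

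Relative to the mean of the 12 microglia markers in the same library, the difference was 0.34 for Trem2, 0.38 for Tyrobp, 0.15 for Syk, 0.28 for Plcg2, 0.38 for Ptpn6 and 0.40 for Sirpa, and it was -0.13 for Inpp5d and -0.20 for Cd33. On that scale the median of all genes tested was -0.21. Of those markers themselves 10 of 12 had the higher FFC mean, their median difference was 0.48, and 0 passed limma's adjusted threshold. Sample titles carry a month, November for FF 1 to FF 3 and FFC 1 and December for FF 4 and FFC 2 to FFC 4, but the sources used here do not give what it marks. Within November titles the difference was 0.31 for Trem2, 0.60 for Tyrobp, 1.36 for Syk, 0.34 for Ptpn6 and 0.19 for Sirpa, and -0.54 for Plcg2, -0.82 for Inpp5d and -0.63 for Cd33. Within December titles it was 1.82, 1.05, -0.90, 1.16 and 1.33 for Trem2, Tyrobp, Syk, Ptpn6 and Sirpa, and 2.63, 0.68 and 1.04 for Plcg2, Inpp5d and Cd33. The median of all genes tested was -0.25 within November titles and 0.57 within December titles. Each month rests on 1 library of 1 genotype, FFC 1 in November and FF 4 in December.

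**Figure D3:**
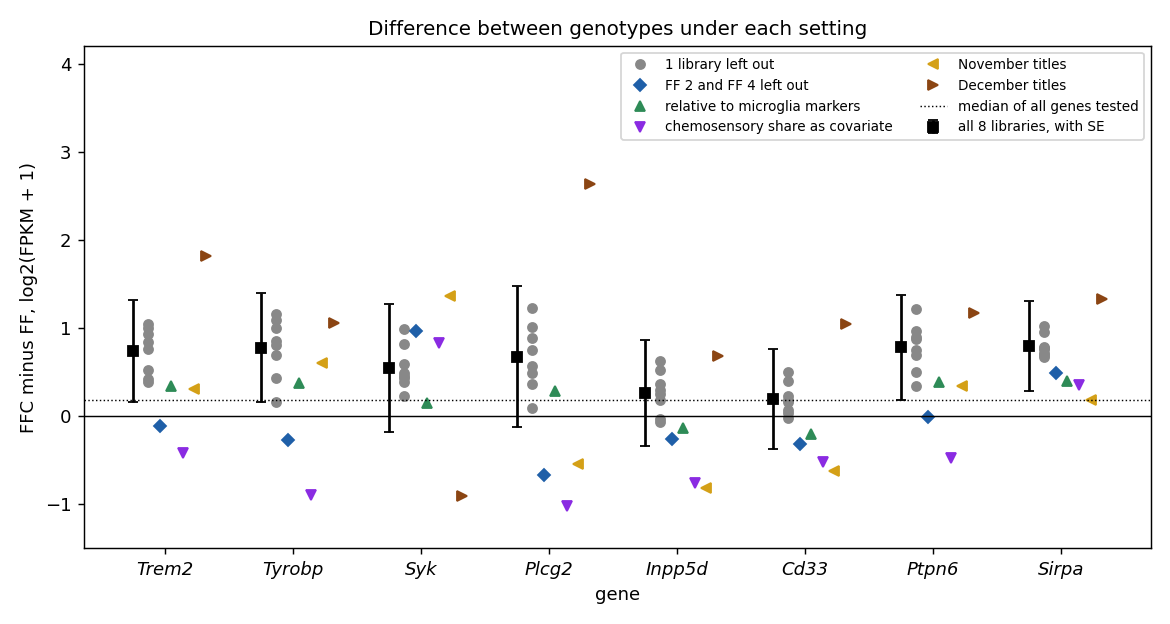
FFC minus FF on log2(FPKM + 1) for each gene with all 8 libraries (black, SE) and under each other setting; the dotted line is the median of all genes tested, 0.19. Sirpa is above 0 under every setting drawn, while Trem2, Tyrobp and Plcg2 drop below 0 without FF 2 and FF 4.

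By sex, with genotype as a covariate, limma found 0 of the 8 genes past the adjusted threshold, as for 0.0% of the 17753 genes. None of the 8 had an unadjusted limma p under 0.05, while 709 of the 17753 genes did, 456 of them higher and 253 lower in males. The mean was lower in males for 6 of 8, and the same share over all genes tested was not computed. Syk averaged 22.4 FPKM in females and 11.0 FPKM in males, a male minus female difference of -1.04 ± 0.70 (SE, limma adjusted p = 0.953). Tyrobp differed by -0.91 ± 0.58 and Ptpn6 by -0.75 ± 0.58, while Sirpa was at 0.40 ± 0.52 and Plcg2 at 0.08 ± 0.83. The test of whether the genotype difference itself differed between the sexes called 0 of 8, as for 0.0% of all genes, where 567 had an unadjusted p under 0.05, and its smallest unadjusted limma p among the 8 was 0.437, for Trem2.

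Around these 8 genes, 111 other genes of the pathway were listed by role, of which 108 were in the table and 100 had a mean of at least 1 FPKM. In 75 the mean was higher in FFC and in 25 lower on the deposited scale, with 68 to 70 higher under the other 3 scalings and 50 higher without FF 2 and FF 4. Of all genes tested, 56.7% were higher in FFC on the deposited scale. That share was 50.9% to 51.6% under the other 3 scalings and 52.6% without FF 2 and FF 4. These shares are also the background for the counts of each list below. By limma 0 of 100 passed the adjusted threshold, and 10 (7 higher and 3 lower) had an unadjusted p under 0.05, against 6.46% of all genes tested. In 7 all FFC libraries were above all FF libraries and in 3 all were below, against 3.05% and 1.29% of all genes. The median difference was 0.49, against 0.19 over all genes tested, which was 0.07 without FF 2 and FF 4. The genes named below had limma adjusted p of 0.382 or more.

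Of 38 proximal kinases, adaptors and effectors tested, 30 had the higher mean in FFC and 8 the lower, with a median of 0.53 that was 0.14 without FF 2 and FF 4 and -0.04 with the receptor gene share as a covariate. The Src family kinase Fgr measured 4.26, 0.82, 5.20 and 2.53 FPKM across FF and 14.8, 9.99, 39.4 and 75.9 FPKM in FFC, a difference of 2.83 ± 0.83 (limma adjusted p = 0.651). The adaptor Lat2, a substrate of Syk family kinases, measured 8.29, 5.41, 26.8 and 22.6 FPKM across FF and 34.9, 84.3, 91.4 and 81.3 FPKM in FFC, a difference of 2.31 ± 0.70. For both genes the genotypes did not overlap. Prkcd, a kinase activated by diacylglycerol, had 114 ± 54.0 FPKM in the FF and 252 ± 108 FPKM in the FFC libraries (SD, n = 4 each), and the adaptor Pik3ap1 had 24.1 ± 12.1 and 48.9 ± 16.6 FPKM. The signalling chains most like Tyrobp were Fcer1g, at 588 ± 377 and 786 ± 133 FPKM, and Hcst, at 25.4 ± 24.9 and 12.7 ± 10.4 FPKM.

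Of the other receptors that signal through Tyrobp, 8 of 13 reached the filter, 6 with the higher mean and 2 with the lower, and the median of 0.11 changed sign between settings: it was between -0.09 and -0.06 under the other 3 scalings, -0.31 with month as a term, and 0.76 at a filter of 5 FPKM, which leaves Clec5a and Siglech. The lectin Clec5a had 31.3 ± 28.7 and 65.9 ± 27.3 FPKM (SD, n = 4 each), 1.51 ± 0.79 apart, and 0.20 apart without FF 2 and FF 4. Sirpb1a, an activating relative of Sirpa, had 3.32 ± 3.30 and 4.85 ± 2.74 FPKM, and Pilrb1, an activating relative of Pilra, had 3.18 ± 4.38 and 3.01 ± 4.88 FPKM. Trem3 was listed at 0.43, 0, 0 and 8.58 FPKM across FF and 0, 1.39, 0.39 and 0 FPKM in FFC. Siglech, a microglial Siglec, was the abundant one, at 287 ± 128 and 302 ± 156 FPKM. Those below the filter were Trem1, Cd300lb, Cd300ld, Plxna1 and Siglec15.

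Of 17 other inhibitory receptors, 14 had the higher mean in FFC and 3 the lower, and the median of 0.88 was 0.69 to 0.76 under the other 3 scalings but -0.0064 without FF 2 and FF 4 and -0.43 with the receptor gene share as a covariate. Pilra, a receptor with inhibitory motifs in its tail, measured 18.7, 18.3, 7.56 and 11.0 FPKM across FF and 70.4, 38.7, 32.1 and 79.2 FPKM in FFC, without overlap, a difference of 1.90 ± 0.64 (limma adjusted p = 0.712) that was 2.01 without FF 2 and FF 4. Siglecg, a sialic acid receptor known from B cells, measured 6.14, 5.13, 0.25 and 0.077 FPKM across FF and 12.1, 8.16, 10.6 and 43.2 FPKM in FFC, without overlap. Cd22, a related B cell receptor, had 2.57 ± 3.62 and 9.67 ± 4.50 FPKM (SD, n = 4 each). B cell markers summed to 83.8, 6.64, 63.4 and 15.2 FPKM across FF 1 to FF 4 and 31.1, 41.7, 25.5 and 80.7 FPKM in FFC 1 to FFC 4, with 1 of the 4 tested higher on average in FFC, and their part in Siglecg and Cd22 was not tested. The lectin Clec4a2 ran the other way, with 386, 75.1, 301 and 355 FPKM across FF and 32.4, 65.7, 70.2 and 301 FPKM in FFC, a difference of -1.51 ± 0.74. Its exceptions were 1 library in each genotype, FF 2 and FFC 4.

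Of 21 other phosphatases and negative regulators tested, 16 had the higher mean in FFC and 5 the lower, with a median of 0.40 that was 0.01 without FF 2 and FF 4. The diacylglycerol kinase Dgka, which consumes the lipid that Plcg2 releases, measured 9.89, 11.8, 9.91 and 28.3 FPKM across FF and 2.61, 1.59, 1.18 and 6.68 FPKM in FFC, all FFC below all FF, a difference of -2.04 ± 0.77 (limma adjusted p = 0.712). T cell markers, of cells in which Dgka is also known, summed to 288 FPKM in FF 1, 23.8, 36.1 and 36.0 FPKM across FF 2 to FF 4, and 7.10, 21.7, 27.1 and 51.9 FPKM in FFC 1 to FFC 4, so only FF 1 lay above the FFC range. Of the 7 markers 6 had the lower mean in FFC, Cd3d was at 0 in FF 3 and Cd3g in FF 2 and FFC 3. In 1 of them, Lck, all FFC values were below all FF values, as for Dgka. Lck measured 14.6 to 79.7 FPKM across FF and 0.39 to 5.96 FPKM in FFC, and the other markers overlapped. The part of T cells in Dgka was not tested. Ubash3b, a phosphatase that acts on Syk, had 20.4 ± 23.8 and 76.7 ± 73.0 FPKM (SD, n = 4 each), a difference of 2.42 ± 0.98 that was 0.70 without FF 2 and FF 4. The lipid phosphatase Inpp4a had 5.71 ± 2.36 and 12.3 ± 2.48 FPKM, without overlap, and the adaptor Dok1 had 5.93 ± 9.51 and 6.53 ± 2.67 FPKM.

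Of 16 ligands, sheddases and partners tested, 9 had the higher mean in FFC and 7 the lower, and the median of 0.21 was between -0.02 and 0.02 under the other 3 scalings and -0.43 without FF 2 and FF 4. Clu, a secreted chaperone and lipoprotein known to bind Trem2, measured 127, 36.3, 23.4 and 61.9 FPKM across FF and 0.89, 1.84, 3.45 and 0.012 FPKM in FFC. All FFC values were below all FF values, and the difference of -4.55 ± 0.80 (limma adjusted p = 0.382) was -4.66 without FF 2 and FF 4. Sftpa1, a surfactant collectin that binds Sirpa, had 30.0 ± 26.5 and 3.88 ± 3.56 FPKM (SD, n = 4 each), again without overlap. Lgals3, a galectin that binds Trem2, had 8.71 ± 14.3 and 41.5 ± 34.3 FPKM. Apoe, the lipoprotein ligand, had 2062 ± 1366 and 3299 ± 2168 FPKM, a difference of 0.72 ± 0.56 that was -0.11 without FF 2 and FF 4. Astrocyte markers, of cells that also make Clu and Apoe, summed to 54.3 to 197 FPKM across FF and 90.8 to 188 FPKM in FFC. Most of that sum was Slc1a3 alone, at 49.7 to 192 FPKM across FF and 85.8 to 182 FPKM in FFC. No other astrocyte marker exceeded 24.1 FPKM in any library. Of the 5 that reached the filter 3 were higher on average in FFC, and Gfap, below it, was at 0 in FF 2. The part of astrocytes in Clu and Apoe was not tested.

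**Figure D4:**
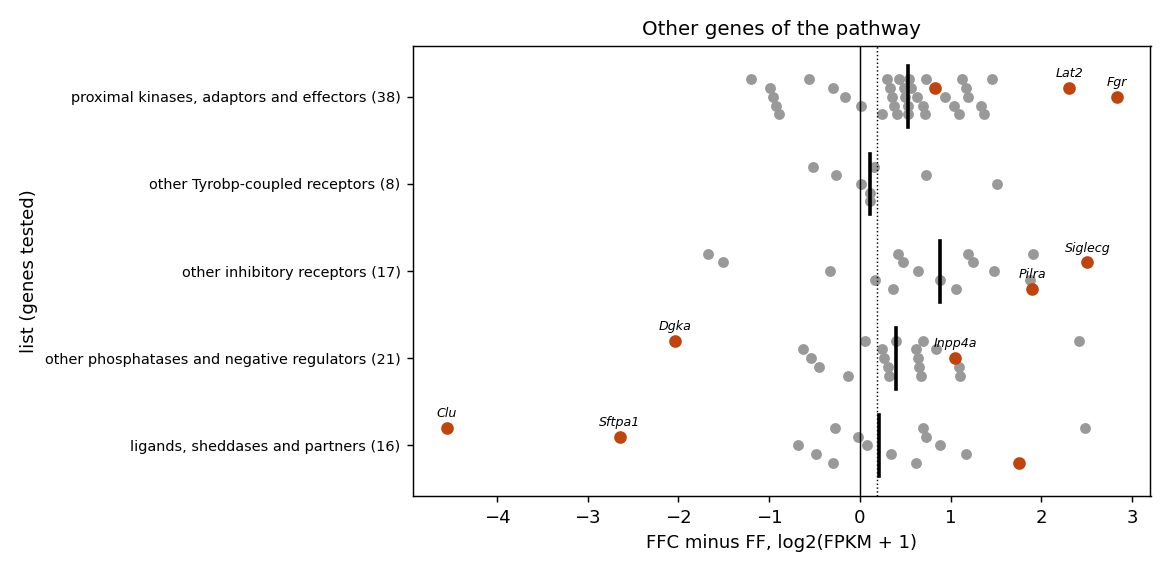
FFC minus FF on log2(FPKM + 1) for each tested gene of 5 pathway lists; thick bars are list medians, the dotted line the median of all genes tested (0.19), and orange marks genes whose genotypes do not overlap, with those described in the text named. The medians are 0.88 for the inhibitory receptors and 0.11 for the Tyrobp-coupled receptors on the deposited scale. The former is -0.43 with the receptor gene share as a covariate. The latter runs from -0.78 within November titles to 0.76 at a filter of 5 FPKM, and is -0.09 under quantile normalization.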

How the data were processed

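The authors deposited 1 table of FPKM values per gene and library. Named in the submitters' processing notes are Cufflinks 2.0.2, TopHat2 2.0.4, Bowtie2 2.0.0, CASAVA 1.8.2 and the build mm9, while the sources used here do not give their roles or the annotation. Of 37447 genes, 447 with a missing value (331 in all 8 libraries) were left out, and 17753 of the other 37000, with a mean of at least 1 FPKM, were tested on log2(FPKM + 1). Starts are printed counted from 1. Genotype, sex (with genotype) and their interaction were tested with limma 3.58.1 in R 4.3.3 (two-sided, trended empirical Bayes, Benjamini-Hochberg, threshold 0.05). The p-values measure the spread between these libraries. Same-numbered libraries of the genotypes were not treated as paired. Step sizes of low FPKM values gave relative depth. Other steps used scipy 1.17.1, pandas 2.3.3, numpy 2.4.6 and matplotlib 3.10.9 under Python 3.11.15.

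The members and lists were chosen with earlier results of these data known. Named were the 8 members, up to 4 genes per list with the smallest unadjusted p (mean of at least 1 FPKM), some genes of counts of 5 or fewer, and the 3 nearest patterns of Trem2, Tyrobp and Syk (predicted genes, microRNAs, snoRNAs and pseudogenes left out). Fcer1g, Hcst, Siglech and Apoe were added after their values were seen. Alternatives were pseudocounts of 0.1 and 5, a filter of 5 FPKM or none, upper-quartile, quantile, equal-sum and microglia-marker scaling, robust variances, array weights, sex, month, replicate number or receptor gene share as a term, months apart, and leaving out each library or FF 2 with FF 4. A few genes that the rule would name are not reported here.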

Additional observations from a re-analysis of the deposited data

Results flagged for a closer look

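Outlying libraries were looked for in 56 groups of 4 libraries (a named gene of the 8 or of the pathway lists in 1 genotype). The gap of the highest or lowest library over the group's range, both on log2(FPKM + 1), was compared with Dixon's critical value. Chance alone flags about 1 in 20 groups. Of Syk, the kinase, FFC 3 was the low one among the FFC libraries, at 9.81 FPKM with a ratio of 0.833. The adaptor Lat2 was lowest in FFC 1, at 34.9 FPKM with a ratio of 0.877, which was still above every FF library. Trem3, a neighbour of Trem2 in its family, was highest in FF 4, at 8.58 FPKM with a ratio of 0.841. The lectin receptor Clec4a2 was lowest in FF 2, at 75.1 FPKM with a ratio of 0.848. The diacylglycerol kinase Dgka was highest in FF 4, at 28.3 FPKM with a ratio of 0.840. For Trem3 the genotype difference had opposite signs in the females and the males, with a difference between the sexes of 2.75 on the log2 scale (male minus female); limma's test of that interaction gave an adjusted p of 1.00, so it did not pass, and the values are listed at 0 in 4 of the 8 libraries.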

How the results depend on the processing

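Of 25 other settings for the 8 genes, 5 leave the difference as it is by construction (both filters, robust variances, sex as a term, replicate block); of the 160 values of the others 136 kept their direction and 24 reversed. Of the 184 values with a limma adjusted p, 0 passed the threshold (smallest 0.570), and the 16 within months had no test. Reversed were Cd33 with upper-quartile scaling (-0.035) and an equal sum (-0.0095); Inpp5d (-0.13) and Cd33 (-0.20) relative to microglia markers; Inpp5d with month as a term (-0.070); with the receptor gene share as a covariate Trem2 (-0.42), Tyrobp (-0.90), Plcg2 (-1.02), Inpp5d (-0.76), Cd33 (-0.52) and Ptpn6 (-0.47); without FF 2 and FF 4 Trem2 (-0.11), Tyrobp (-0.27), Plcg2 (-0.67), Inpp5d (-0.26), Cd33 (-0.32) and Ptpn6 (-0.013); within November titles Plcg2 (-0.54), Inpp5d (-0.82) and Cd33 (-0.63); and within December titles Syk (-0.90). The cause was not tested, and the receptor gene share, higher in every FF library than in any FFC library, cannot be separated from genotype. Over all genes tested the median was -0.21 relative to microglia markers, -0.25 within November titles and 0.57 within December titles. With 1 library left out, Trem2 ran from 0.39 to 1.04, Tyrobp 0.16 to 1.15, Syk 0.23 to 0.99, Plcg2 0.10 to 1.23, Inpp5d -0.063 to 0.62 (-0.039 without FFC 4), Cd33 -0.021 to 0.51, Ptpn6 0.34 to 1.21 and Sirpa 0.67 to 1.02; where an arm had 1 library it was assumed to vary like the others. Genes called then ran from 0 to 1 for genotype (1 without FF 1 or FFC 4), 0 to 3 for sex (2 without FF 2, 3 without FF 4) and 0 to 1 for the interaction (1 without FF 1 or FFC 4), and were 0 under all other settings run. With the replicate block the difference of Trem2 was 0.74 and 0 genes were called. Same-numbered libraries, which share a sex, correlated at -0.04, 0.03, -0.01 and -0.05, against -0.12 to 0.12 for differently numbered ones. These values show no pairing by number but cannot exclude one. Syk in FF 2 had the fewest fragments per kilobase. Of 125 list medians 10 moved by more than their spread: the Tyrobp-coupled receptors to 0.76 with a filter of 5 FPKM, -0.31 with month as a term and -0.78 within November titles; the kinases, adaptors and effectors to 0.13 relative to microglia markers, 0.14 without FF 2 and FF 4 and -0.04 with the receptor gene share; the inhibitory receptors to -0.0064 and -0.43 under the latter 2; and the ligands to -0.62 with that share and 1.04 within December titles.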
